A study of Mus musculus with 6 samples.

Results

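The E2F transcription factors and the pocket proteins that bind them were followed in bulk RNA-Seq counts of Tregs with and without Zfp335. Tregs are CD4+ T cells defined by Foxp3, and they hold other T cells in check. Members were matched by gene symbol: E2f1, E2f2, E2f3, E2f4, E2f5, E2f7, E2f8, Rb1, Rbl1 and Rbl2. The list of members was chosen with earlier results of these data known. All 10 were found among the 13709 rows of the count table, each on a single row, and all 10 passed the low-count filter, with counts of 208 to 12933 per sample. The cells were CD4+YFP+CD25+ Tregs from C57BL/6 mice, 3 WT samples (Foxp3Cre) and 3 KO samples (Foxp3Cre Zfp335 fl/fl), taken at 2 weeks of age according to the methods. Mice of both genotypes carried Foxp3Cre, in which Cre and YFP are made from the Foxp3 locus, so the floxed Zfp335 gene is deleted only in cells that express or have expressed Foxp3. The labels call the controls wild-type littermates, and they give both lymph node and spleen as the source. Whether a sample was 1 mouse or a pool was not stated, so p-values measure the spread between these samples, part of which may be technical.

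E2F factors bind, with a DP partner, to promoters of genes needed for DNA replication and cell division. E2F1, E2F2 and E2F3 are activators that pocket proteins, RB first among them, hold in check until cyclin-dependent kinases phosphorylate the pocket proteins at the end of G1. E2F4 and E2F5 are canonical repressors that bind p107 and p130, the products of Rbl1 and Rbl2, in resting cells. E2F7 and E2F8 are atypical repressors that bind DNA without a DP partner or a pocket protein, are themselves made from E2F-driven promoters in S phase, and lower the same target genes again. In T cells, p130 with E2F4 is known from resting cells, and the activators and p107 accumulate when cells enter the cycle.

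E2F7, E2F8, E2F3 and p107 are among the products known from E2F-driven promoters, so the DNA just before their annotated starts is shown. Sequences came from RefSeq (GRCm38.p6, the assembly mm10 denotes) and run 5′ to 3′ on the strand of the gene. Capitals mark a match on either strand to an E2F word. The words searched were TTCCCGC and, beside it, the word TTCGCGC, then the word TTGGCGC and finally the word TTGCCGC, and no matches in these genes overlapped. Rbl2 is shown beside them as a pocket protein gene with no such word in its window.
E2f7, chr10:110745189-110745438, plus strand: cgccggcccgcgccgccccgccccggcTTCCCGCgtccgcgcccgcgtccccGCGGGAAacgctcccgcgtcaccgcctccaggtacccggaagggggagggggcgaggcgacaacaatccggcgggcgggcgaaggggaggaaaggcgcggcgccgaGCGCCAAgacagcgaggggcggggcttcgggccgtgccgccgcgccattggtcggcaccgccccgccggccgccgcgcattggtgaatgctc
E2f3, chr13:29986065-29986313, minus strand: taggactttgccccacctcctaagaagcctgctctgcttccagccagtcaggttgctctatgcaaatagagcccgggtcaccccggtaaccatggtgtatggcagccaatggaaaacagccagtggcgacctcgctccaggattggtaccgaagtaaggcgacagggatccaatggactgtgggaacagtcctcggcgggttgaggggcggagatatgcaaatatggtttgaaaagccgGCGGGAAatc
Rbl1, chr2:157204535-157204784, minus strand: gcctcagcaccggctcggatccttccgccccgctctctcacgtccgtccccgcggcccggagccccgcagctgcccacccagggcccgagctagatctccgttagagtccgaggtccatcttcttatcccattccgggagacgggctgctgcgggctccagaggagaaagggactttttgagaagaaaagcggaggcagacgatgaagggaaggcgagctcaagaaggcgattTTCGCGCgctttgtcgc
Rbl2, chr8:91069807-91070056, plus strand: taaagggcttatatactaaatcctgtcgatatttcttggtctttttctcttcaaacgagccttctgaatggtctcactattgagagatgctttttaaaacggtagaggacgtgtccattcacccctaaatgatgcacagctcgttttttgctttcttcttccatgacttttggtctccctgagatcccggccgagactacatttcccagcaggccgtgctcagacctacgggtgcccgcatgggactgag

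For E2f2 and E2f8, 30 bases around the word are given, since the E2f2 word lies after the annotated start and the E2f8 start lies 477 bp inside the gene.
E2f2, chr4:136172294-136172323, plus strand: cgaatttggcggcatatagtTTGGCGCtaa
E2f8, chr7:48881689-48881718, minus strand: agaggcgcggaTTGGCGCgcggggccccgg
Over windows from 250 bases before to 50 after each start, 5 of the 7 members with a promoter entry held an E2F word: E2f7 held 3, E2f3 held 2, and E2f2, E2f8 and Rbl1 held 1 each. The E2f7 words began 223, 198 and 92 bp before the start, and that of Rbl1 began 17 bp before it. Counted by window, 5 of 9 member windows (55.6%) held a word, since the second listed starts of E2f2 and E2f3 held none. The same words stood in 9.6% of all 32851 promoter windows and in 15.7% of the windows of genes in the count table. No word was found for E2f1, whose listed start lies 466 bp inside the gene, or for Rbl2. A match is a string of letters in a window and says nothing of binding in these cells. Promoters of E2f4, E2f5 and Rb1 were not analysed here.

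**Figure D1:**
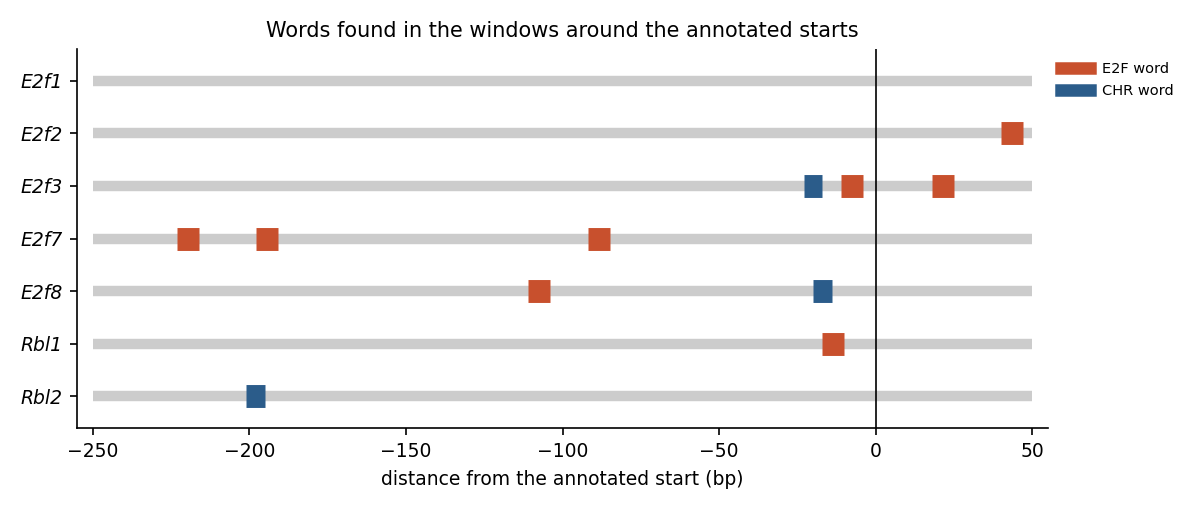
Matches to the E2F words (orange) and to the words TTTGAA and TTCGAA, known as the CHR element (blue), along the windows around the first listed start of 7 genes. The x axis is the distance from that start in bp, and each grey bar is the window of 300 bases. The 3 E2F words of E2f7 all lie before its start, while E2f1 has no match.

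Total counts per sample ranged from 32032631 to 40728419, and 13594 genes passed the filter and were tested. Zfp335, the deleted gene, had a mean of 99.4 ± 4.503 CPM (SD, n = 3) in WT and 38.3 ± 1.66 in KO, which was 38.6% of the WT mean (edgeR quasi-likelihood test, Benjamini-Hochberg adjusted p = 2.14e-05). CPM stands for counts scaled to a common library size, so that samples of different depth can be compared. WT replicate 3 stood apart from the other WT samples on the second principal component (-58.9 against 22.1 and 34.4, with 18.4% of the variance), so every member is also given without it. The T cell and Treg markers were high in all 6 samples, at a summed level of 3927 to 5104 CPM in WT and 3309 to 3405 CPM in KO. Foxp3 and Ikzf2 were called lower, while Cd4 went the other way (log2 fold change 0.26) and was not called. For Foxp3, WT replicate 3 stood at 1190 CPM against 738 and 642 CPM in the other WT samples, and the Foxp3 difference without it is not given here. Markers of other cells differed too, all in summed CPM. Over all genes tested, 11.9% were called higher in KO and 12.5% lower. All 6 of 6 myeloid markers were called higher (8.41 to 19.4 in WT, 41.8 to 48.6 in KO), with S100a8 and S100a9 at 0 in every WT sample. In the paper's single-cell data from younger mice, S100a8 and S100a9 were high in a Treg subset it called dysfunctional. That subset was more frequent in KO and expressed Top2a and Mki67, and its part here was not tested. Of the NK cell markers, 3 of 4 were called higher (3.78 to 5.89 in WT, 15.4 to 17.3 in KO). Of the B cell markers, 2 of 6 were called lower (446.9 to 717 in WT, 186 to 199.6 in KO), nearly all of it Ighm. Of the CD8 T cell markers, 1 of 2 was called higher (9.32 to 13.2 in WT, 12.02 to 12.7 in KO), and none of the 4 erythroid markers was called (22.9 to 98.9 in WT, 42.3 to 47.8 in KO). The part of these cells in the results below was not tested. In bulk RNA, fewer cells of a type and less RNA per cell cannot be told apart, so a gene of cycling cells can differ through either.

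Calls used the cutoffs of the study, a fold change over 1.5 with a p below 0.05 before and below 0.1 after adjustment. By these cutoffs 7 of the 10 members were called, against 24.4% of all genes tested. Higher in KO were E2f1, E2f2, E2f3, E2f7, E2f8 and Rbl1, 6 of 10 members beside 11.9% of all genes. E2f5 was the 1 member called lower, beside 12.5% of all genes. The KO and WT values did not overlap for 9 of the 10 members, 7 of them higher and 2 lower, against 53.8% of all genes. With the fold cutoff dropped, 9 members had an adjusted p below 0.1, against 47.0% of all genes. Without WT replicate 3, 5 members were called (E2f1, E2f2, E2f7, E2f8 and Rbl1), beside 26.8% of all genes. The members had a median log2 fold change of 0.71, or 0.60 without that sample, and the median of all genes was -0.035.

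**Figure D2:**
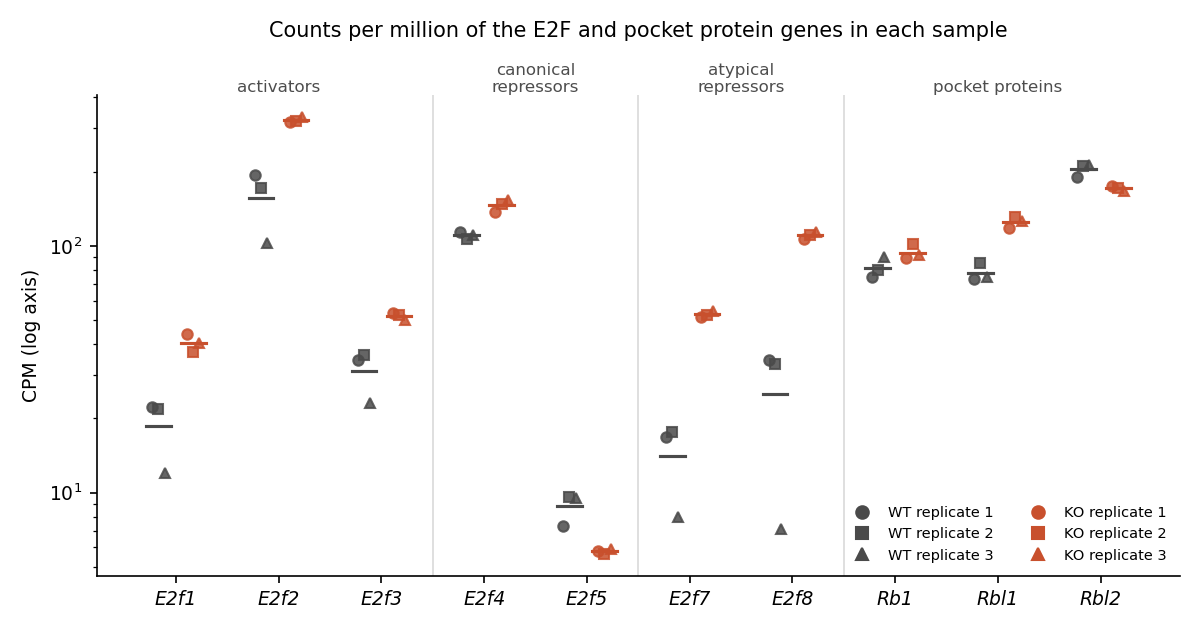
CPM of each gene on a log axis in the 3 WT (grey) and 3 KO (orange) samples, where the marker shape gives the replicate and the bar the mean. WT replicate 3 (grey triangle) is the lowest of the 6 samples for E2f1, E2f2, E2f3, E2f7 and E2f8, while the KO samples lie close together, and the heights of different genes are not comparable on this axis because transcript length is not taken into account.

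The activators rose together. Values are listed in the order of the replicates. E2f1 (chr2:154559400-154569892) stood at 22.1, 21.7 and 12.02 CPM in the WT samples and at 43.7, 37.3 and 40.5 CPM in the KO samples. Every KO sample was above every WT sample, and WT replicate 3 was the low one. The mean went from 18.6 ± 5.73 to 40.5 ± 3.23 CPM (SD, n = 3), or 1.12 ± 0.22 as a log2 fold change with its SE (adjusted p = 0.00545), and of 0.88 without WT replicate 3. E2f1 overlaps the coding gene Necab3, which was at 0.661 to 2.75 CPM in these samples.

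E2f2, the activator with the highest level per length, is on chr4:136172274-136196057. Its values were 193.6, 171 and 103 CPM in WT and 317, 322 and 333 CPM in KO. The groups stood well apart, and again WT replicate 3 had the lowest value, 56.2% of the mean of the other WT samples. This gave a log2 fold change of 1.06 ± 0.21 (adjusted p = 0.00537), and 0.82 without that sample.

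E2f3 (chr13:29906575-29986064), the third activator, had 34.3, 36.0 and 23.1 CPM in WT and 53.2, 52.4 and 50.2 CPM in KO. The groups did not overlap, and the log2 fold change was 0.74 ± 0.16 (adjusted p = 0.00826). Without WT replicate 3 it was 0.56 with an adjusted p of 1.80e-05, under the fold cutoff, so the call of E2f3 rested on that sample.

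The canonical repressors E2f4 and E2f5 moved in opposite directions. E2f4 (chr8:105297663-105305370) had 113.5, 107 and 111 CPM in WT and 137, 147 and 153.5 CPM in KO. All KO samples were above all WT samples, and the WT samples lay close together. The log2 fold change of 0.40 ± 0.068 had an adjusted p of 0.00294 and a 95% interval of 0.24 to 0.56, all of it below the fold cutoff, so E2f4 was not called. It was 0.40 without WT replicate 3 as well.

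E2f5 (chr3:14578602-14606309) fell, from 7.31, 9.56 and 9.49 CPM in WT to 5.78, 5.65 and 5.90 CPM in KO. Here WT replicate 1 was the lowest WT sample and still above every KO sample. The log2 fold change was -0.60 ± 0.16 (adjusted p = 0.0222), close to the cutoff. It was -0.54 without WT replicate 2 and -0.55 without WT replicate 3, and the call was lost in both. E2f5 overlaps Rbis, which had 27.7 to 40.0 CPM, several times the level of E2f5. Whether the counting used strand was not stated, so the value of E2f5 is uncertain.

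The atypical repressors E2f7 and E2f8 had the largest differences among the 10 genes. E2f7 (chr10:110745439-110787384) had 16.7, 17.5 and 7.96 CPM in WT and 51.4, 52.4 and 54.6 CPM in KO. No KO sample came near the WT range. KO exceeded WT by a log2 fold change of 1.91 ± 0.26 (adjusted p = 0.00118), and 1.62 without WT replicate 3.

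E2f8 (chr7:48866429-48882073) had 34.5, 33.3 and 7.15 CPM in WT and 106.9, 110.5 and 114 CPM in KO. The KO values were nearly alike, while WT replicate 3 held 21.1% of the mean of the other WT samples, the lowest share among the members. The log2 fold change was 2.14 ± 0.48 (adjusted p = 0.0104), and 1.70 ± 0.070 without that sample. The ratio of E2f8 to E2f7 per kb of transcript was 4.23, 4.29 and 4.25 in KO and 4.19 and 3.87 in WT replicates 1 and 2, but 1.83 in WT replicate 3. Outside that sample both genes therefore stood in nearly the same ratio in WT and KO.

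Among the pocket proteins, Rbl1 alone was called. Rbl1 (p107, chr2:157145893-157204534) had 73.5, 85.04 and 74.9 CPM in WT and 118, 131 and 126 CPM in KO. The groups were far apart and WT replicate 3 lay between the other WT samples. The log2 fold change was 0.68 ± 0.081 (adjusted p = 0.000635), and 0.65 without WT replicate 3.

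Rbl2 (p130, chr8:91070057-91123844), the pocket protein of resting cells, had 189.5, 211 and 212 CPM in WT and 175, 171 and 167 CPM in KO. All KO samples were below all WT samples, with a log2 fold change of -0.26 ± 0.070 (adjusted p = 0.0224) and a 95% interval of -0.42 to -0.093. That interval does not reach the fold cutoff, so Rbl2 was not called, and the value was -0.23 without WT replicate 3. Rbl2 overlaps Aktip, which had 11.1 to 21.4 CPM and was itself called lower (-0.65).

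Rb1 (chr14:73192858-73325951), which encodes RB, had 74.6, 80.1 and 89.8 CPM in WT and 89.0, 101 and 91.5 CPM in KO. The groups overlapped, since the highest WT sample was above the lowest KO sample. The log2 fold change was 0.21 ± 0.090 (adjusted p = 0.112) with a 95% interval of -0.005 to 0.41, and Rb1 was not called. It was 0.28 without WT replicate 3 (adjusted p = 0.00515), still under the fold cutoff. Lpar6, which lies inside Rb1, went the other way, with a mean of 26.4 CPM in WT and 13.3 CPM in KO and a log2 fold change of -0.99.

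**Figure D3:**
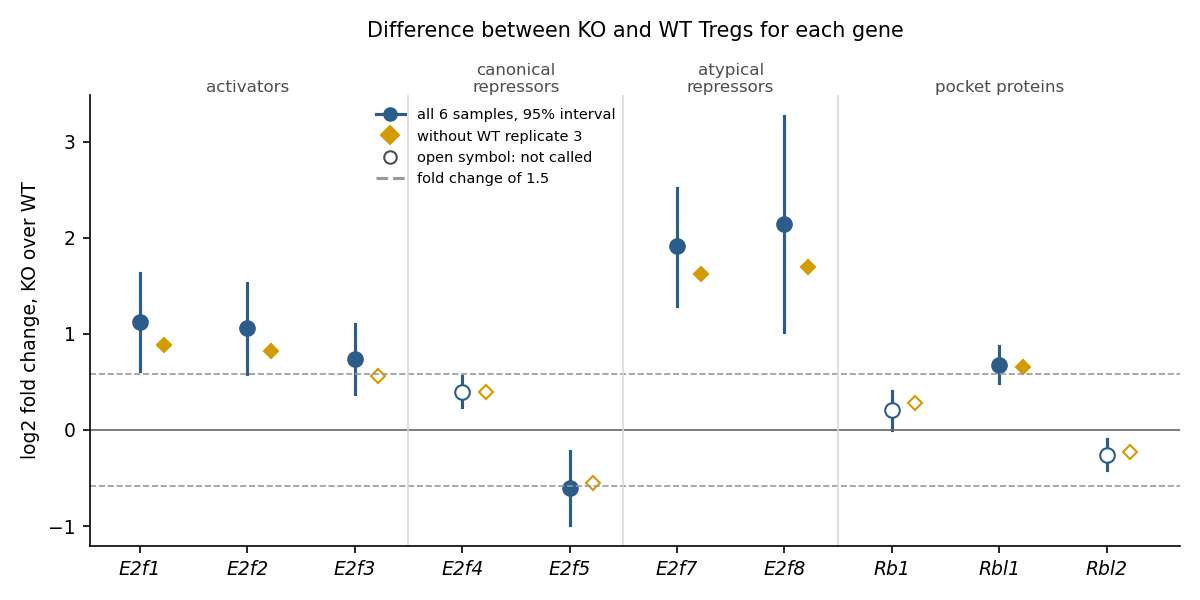
Log2 fold change of KO over WT for each gene with its 95% interval (blue, all 6 samples) and without WT replicate 3 (yellow); open symbols were not called, and dashed lines mark a fold change of 1.5. The atypical repressors E2f7 and E2f8 stand highest at 1.91 and 2.14, the activators lie at 0.74 to 1.12, and the canonical repressors E2f4 and E2f5 lie on opposite sides of 0.

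Activators and repressors were then set against each other. The mean log2 fold change was 0.97 for the 3 activators and 0.96 for the 4 repressors, so their difference was 0.009 and ranged from -0.039 to 0.072 over the settings tried. Per sample, the mean log2 level of the activators exceeded that of the repressors by 1.003, 0.88 and 0.96 in WT and by 0.98, 0.87 and 0.85 in KO. The change between genotypes was -0.049 on these values, less than their pooled SD of 0.068, so no shift between the 2 classes was larger than the spread between samples. That balance hid a split inside the repressors, which averaged 2.02 for E2f7 and E2f8 and -0.10 for E2f4 and E2f5. The balance also leaned on E2f5 (-0.60), the only repressor below 0, whose value is uncertain. The other canonical repressor, E2f4, was at 0.40. The activators rose by 1.05 less than the atypical repressors and by 1.07 more than the canonical ones, as differences of mean log2 fold changes. Activators minus atypical repressors, -1.05 as reported, ranged from -1.17 (with a replicate block) to -0.91 (without WT replicate 3) over the settings tried.

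Levels of different genes were compared as CPM per kb of transcript. Summed over the 7 E2F genes, this was 113 ± 17.3 CPM per kb in WT and 203 ± 6.15 in KO (SD, n = 3). E2f4 was the most abundant member in both genotypes, at 55.5 CPM per kb in WT and 73.3 in KO. In WT it was followed by Rbl2 (41.5) and E2f2 (32.9), whose samples overlapped. Rb1 (17.5) and Rbl1 (16.0) came next and also overlapped. Then came E2f8 (6.44), E2f1 (5.91), E2f3 (5.82) and E2f5 (4.93), which could not be ordered beyond their spread. E2f7 (1.78) had the lowest mean. It still overlapped E2f8, which in WT replicate 3 (1.84) was below E2f7 in WT replicates 1 and 2 (2.12 and 2.22).

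The order in KO was E2f4 (73.3), E2f2 (68.4), Rbl2 (34.7), E2f8 (28.5), Rbl1 (25.7), Rb1 (20.2), E2f1 (12.8), E2f3 (9.69), E2f7 (6.69) and E2f5 (3.24). Of these neighbours, E2f4 and E2f2 overlapped between samples and no other pair did. E2f8 thus passed Rb1 and Rbl1, and E2f7 passed E2f5.

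As shares of the E2F sum per kb, activators held 43.0%, 41.6% and 31.8% in WT and 46.1%, 44.4% and 44.2% in KO. The canonical repressors held 48.3%, 49.4% and 65.2% in WT and 36.6%, 38.2% and 38.4% in KO. Atypical repressors held 8.71%, 9.03% and 3.04% in WT and 17.3%, 17.4% and 17.4% in KO. None of the 3 shares overlapped between genotypes. The gap for activators was small when WT replicate 3 was set aside, and the single genes whose mean shares differed most were E2f4, with 49.8% in WT and 36.1% in KO, and E2f8, with 5.39% and 14.1%.

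Within the pocket proteins the transcript makeup shifted from p130 to p107. Rbl2 held 55.3%, 55.3% and 55.3% of the pocket protein sum per kb in WT and 45.01%, 41.7% and 42.7% in KO. Rbl1 held 21.7%, 22.5% and 19.8% in WT and 30.7%, 32.3% and 32.5% in KO. Both shares were tight within a genotype, WT replicate 3 included. The ratio of Rbl1 to Rbl2 per kb was 0.386 ± 0.0252 in WT and 0.740 ± 0.0499 in KO (SD, n = 3), with no overlap, while the share of Rb1 was 23.3% ± 1.35 and 25.0% ± 0.927, and overlapped.

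**Figure D4:**
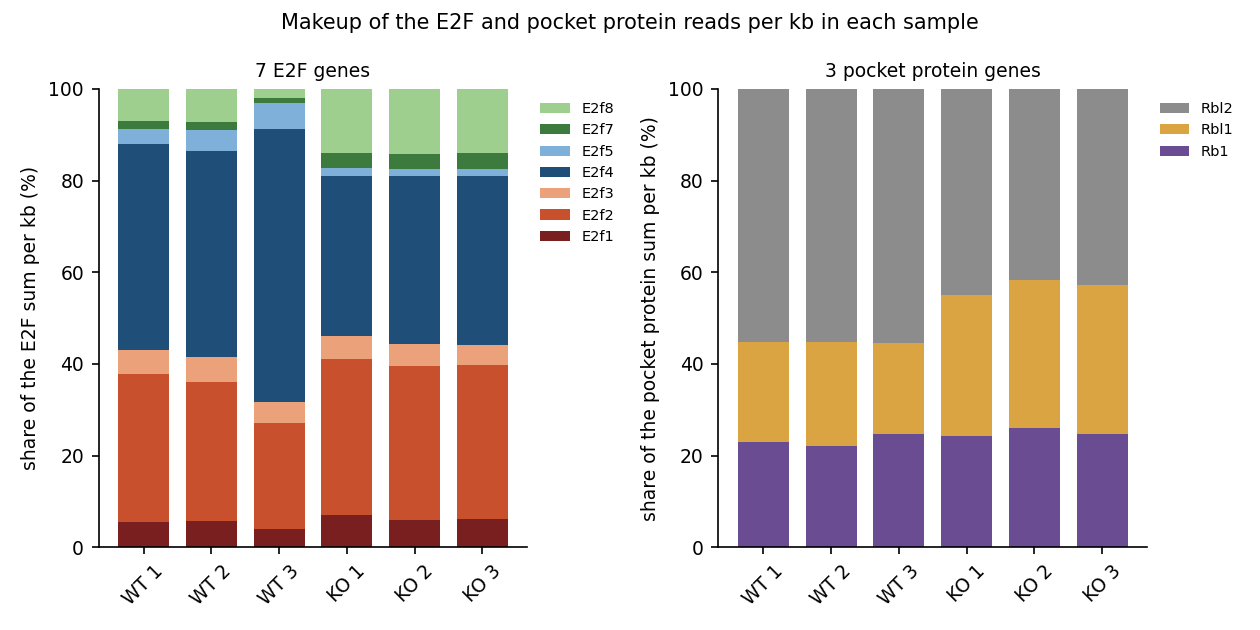
Percent share of each gene in the summed CPM per kb of the 7 E2F genes (left) and of the 3 pocket protein genes (right), 1 stacked bar per sample. E2f7 and E2f8 (greens) take 17.3% to 17.4% in KO and 3.04% to 9.03% in WT, and Rbl2 (grey) takes 41.7% to 45.01% in KO and 55.3% in WT.

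The partners of E2F were mixed. Tfdp1, which encodes the DP1 subunit, had 130.1, 137 and 86.0 CPM in WT and 183, 180.4 and 185.5 CPM in KO, and was called higher (log2 fold change 0.64 ± 0.16, adjusted p = 0.0157). WT replicate 3 was low again, and without it the value was 0.45 and the call was lost. Tfdp2, for DP2, had 51.1, 48.5 and 43.4 CPM in WT and 33.3, 30.5 and 32.1 CPM in KO. Its log2 fold change of -0.58 ± 0.089 (adjusted p = 0.00194) fell just short of the cutoff and passed it without WT replicate 3 (-0.64). E2f6, a repressor that works without pocket proteins, overlapped between groups at means of 24.0 and 26.1 CPM (0.12 ± 0.11, adjusted p = 0.457).

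Upstream of the pocket proteins, 7 of 15 cyclins, CDKs and CDK inhibitors were called higher and none lower. The shares over all genes were 11.9% and 12.5%, and the median log2 fold change of the list was 0.48. Those called were Ccne1 (1.70) and Ccne2 (1.75), the E cyclins that act with CDK2 on RB, Cdk6 (0.60), a D cyclin kinase, and 4 inhibitors of CDKs. Cdkn2a, which encodes p16 and p19ARF, had 0.706, 0.518 and 0.0901 CPM in WT and 9.14, 12.1 and 10.4 CPM in KO. Cdkn1a, for p21, had 5.51, 4.08 and 15.0 CPM in WT and 61.0, 54.6 and 58.3 CPM in KO. These were differences of 4.56 ± 0.51 and 2.83 ± 0.43 on the log2 scale, with adjusted p-values of 0.000483 and 0.00182. WT replicate 3 was the highest WT sample for Cdkn1a, and without it the Cdkn1a difference was 3.58. Cdkn2b (2.54) was low, at most 0.435 CPM in WT and 1.89 CPM in KO, and Cdkn2c, for p18, rose by 1.11. The genes called so included inhibitors as well as cyclins. Cdkn1b, for p27, had 214 ± 49.4 CPM in WT and 157 ± 16.98 in KO and was not called (-0.45). Without WT replicate 3, 7 genes of this group were called higher and 1 lower.

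Target genes of the E2F network were higher nearly throughout. The G1/S list held 40 genes of replication and S phase entry known as E2F targets. Of these, 38 were called higher and none lower, beside 11.9% and 12.5% of all genes. The median log2 fold change was 1.19, with a range of 0.38 to 2.46. Msh6 and Timeless were the 2 not called. Rrm2, a subunit of the ribonucleotide reductase that makes DNA precursors, was at 94.1, 93.8 and 35.7 CPM in WT and 421, 407 and 406 CPM in KO (2.46 ± 0.33, adjusted p = 0.00105). Clspn, a checkpoint adaptor at the replication fork, differed by 2.17 ± 0.33, and Brca1, of DNA break repair, by 1.92 ± 0.22. Summed over the list, the level was 2991, 2983 and 1905 CPM in WT and 6305, 6011 and 6059 CPM in KO. WT replicate 3 was the lowest of the 6 samples for all 40 genes, against 22.6% of all genes tested. Without it 36 genes were called higher, with a median of 0.98.

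Later cell cycle genes were higher as well. The G2/M list held 26 mitotic genes known from the MuvB complex, which takes over from E2F later in the cycle with B-Myb and FoxM1. All 26 were called higher, beside 11.9% of all genes, with a median log2 fold change of 1.87, or 1.55 without WT replicate 3. Bub1, of the spindle checkpoint, differed by 2.18 ± 0.38, the mitotic kinase Nek2 by 2.17 ± 0.21 and cyclin A2 (Ccna2) by 2.11 ± 0.30. The summed level was 1447, 1481 and 628 CPM in WT and 4485, 4402 and 4396 CPM in KO. For all 26 genes WT replicate 3 was the lowest of the 6 samples, against 22.6% of all genes tested.

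Of the MuvB core and its partners, 8 of 9 listed genes were in the table and Lin54 was not analysed here. The 3 called, all higher, were the partners that bind DNA: Mybl2 (B-Myb) went from 27.5 ± 12.2 to 115 ± 1.998 CPM (2.06 ± 0.31), Foxm1 from 38.3 ± 14.1 to 132 ± 7.75 CPM (1.78 ± 0.25), and Mybl1 from 2.69 ± 0.785 to 11.4 ± 2.49 CPM (2.08 ± 0.27). The other 5 were not called, and the median of the 8 was 0.39. Over all genes, 11.9% were called higher.

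Genes known to keep T cells quiescent went the other way. Of 11, 6 were called lower and none higher, beside 12.5% and 11.9% of all genes, with a median log2 fold change of -0.68. Foxp1, a factor that restrains naive T cells, had 258, 253 and 261 CPM in WT and 143.5, 156 and 145 CPM in KO (-0.80 ± 0.064, adjusted p = 0.000123). The antiproliferative genes Tob1 (-0.77) and Tob2 (-0.80) rested on WT replicate 3, which had 82.9 and 207 CPM against 36.2 to 40.4 and 82.5 to 82.9 CPM in the other WT samples. Without it they were at -0.30 and -0.22 and not called, 3 of the 11 genes were called, and the median was -0.30. WT replicate 3 had the highest of the 6 values for all 11 genes, against 3441 of the 13594 genes tested.

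**Figure D5:**
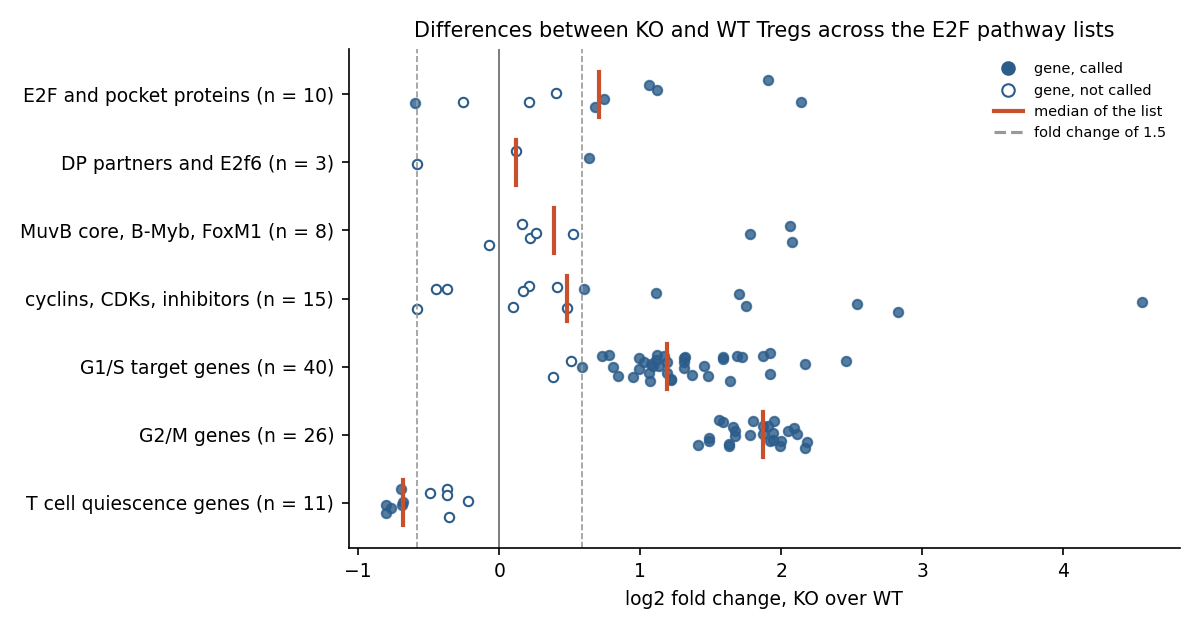
Log2 fold change of KO over WT on the x axis for every tested gene of the lists on the y axis; filled points were called, the orange bar is the median of a list, and dashed lines mark a fold change of 1.5. The G1/S genes (median 1.19) and G2/M genes (median 1.87) lie to the right of 0 throughout, the quiescence genes (median -0.68) to the left, and the E2F and pocket protein genes spread over both sides.

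The same promoter search was run over both target lists. These were made of genes already known from E2F or MuvB, so the shares partly restate that choice and are a description. An E2F word stood in 73.0% of the 37 G1/S promoter windows and in 13.6% of the 22 G2/M windows, against 9.6% of all windows and 15.7% of those of genes in the count table. The words TTTGAA or TTCGAA, known as the CHR element that MuvB binds, stood in 77.3% of the G2/M windows and 10.8% of the G1/S windows, against 19.2% of all and 14.8% of those of genes in the table. Around their first listed starts, E2f3, E2f8 and Rbl2 also held a CHR word. In E2f8 it began 20 bp before the listed start, which itself lies 477 bp inside the gene.

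Set against the summed G1/S list of the same sample, the members fell into groups. E2f1 came to 7.40, 7.29 and 6.31 CPM per 1000 CPM of that list in WT and to 6.94, 6.20 and 6.68 in KO, and these ranges overlapped. E2f2 also overlapped, at 53.9 to 64.7 in WT and 50.3 to 54.97 in KO. For both activators the overlap rested on WT replicate 3. Every KO value lay below those of WT replicates 1 and 2, so with that sample set aside both were lower relative to the list in KO. E2f7 and E2f8 were higher relative to the list in KO, at 8.15 to 9.01 against 4.18 to 5.88 and at 16.96 to 18.8 against 3.75 to 11.5. E2f3, at 8.29 to 8.71 in KO and 11.5 to 12.1 in WT, was lower. Ratios of E2f4, E2f5, Rb1, Rbl1 and Rbl2 to the list were also lower in every KO sample than in any WT sample. Examples are E2f5 (0.916 to 0.974 against 2.44 to 4.98) and Rbl2 (27.6 to 28.5 against 63.4 to 111). The summed list itself was at 1905 to 2991 CPM in WT and 6011 to 6305 CPM in KO. Any gene that rose by less than the list therefore has a lower ratio. E2f3, E2f4, Rb1 and Rbl1 had such lower ratios although their mean CPM was higher in KO.

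Across the 6 samples, log2 CPM of E2f1, E2f2, E2f3, E2f7 and E2f8 correlated with each other at Pearson r = 0.98 or above, and E2f5 with Rbl2 at 0.99. With 3 samples per genotype and WT replicate 3 low in all of the first 5 genes, these values mostly restate the group difference and that sample, and are given as a description. Genes outside the family with the pattern most like E2f1 were Flot2 (r = 0.9996), Mcm6 (0.9988) and Uhrf1 (0.9984), of which Mcm6 and Uhrf1 are on the G1/S list. For E2f8 they were Skida1 (0.9997), Rad51ap1 (0.9991) and Rfc5 (0.9990). For Rbl2 they were Alg2 (0.9990), Xlr4b (0.9962) and Rplp2 (0.9962). Such likeness was common among the genes tested: 6.1% had an r above 0.95 with E2f1, 5.0% with E2f8 and 1.7% with Rbl2.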

How the data were processed

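Reads had been filtered with SOAPnuke, aligned with HISAT2 to mm10 at 1 reported alignment for each read, and quantified with StringTie, per the study's methods. The authors deposited 1 table with the counts of every gene in the 6 samples, all whole numbers, and rows with low sums had been removed (smallest sum 60). How whole counts were obtained, the strand setting and the annotation were not given in the sources used here.

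Counts were tested with edgeR 4.0.16 in R 4.3.3: filterByExpr at a minimum count of 10, TMM scaling and the quasi-likelihood F-test of KO against WT over all 6 samples, two-sided, with Benjamini-Hochberg adjustment over 13594 genes. The cutoffs of a call are the study's. Depth was 32032631 to 40728419 counts per sample. The SE is the log2 fold change divided by the square root of F. Per-sample log2 CPM used a prior count of 2. Lengths came from GENCODE M21 and positions, promoters and overlapping genes from RefSeq (GRCm38.p6). Motif words were searched on both strands.

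Named genes are the members, Tfdp1, Tfdp2, E2f6, Zfp335, up to 3 called genes with the largest change in each direction per pathway list, and the 3 genes most correlated with E2f1, E2f8 and Rbl2. Further genes of the cyclin list, Msh6, Timeless and the overlapping genes were named after their values were seen. The members and lists were chosen with earlier results of these data known. Replicate pairs differed by more than sampling noise, so none was merged. The procedure was tested on simulated data. Alternatives were DESeq2 1.42.0, other scalings and filters, other cutoffs, glmTreat, GC and length offsets, a replicate block and leaving out each sample.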

Additional observations from a re-analysis of the deposited data

How the results depend on the processing

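The log2 fold changes of the 10 members kept their sign under all 15 alternatives. E2f1, E2f2, E2f7 and E2f8 were called under all 15 and Rb1 under none. Against 3318 genes called as reported, separate totals were 3402 with DESeq2, 1686 with glmTreat against a fold change of 1.5, and 5244 when the fold cutoff was dropped and the adjusted p had to be under 0.05, and leaving out 1 sample gave 2867 to 3667. With glmTreat 4 members were called, losing E2f3, E2f5 and Rbl1, and with no fold cutoff 9 were, adding E2f4 and Rbl2. Leaving out 1 sample gave 5 to 7 members, the low end without WT replicate 3. The log2 difference of activators and repressors ranged from -0.039 to 0.072.

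For DP partners and E2f6, 2 genes were called with library totals alone, 2 with no fold cutoff, 0 with glmTreat and 1 to 2 without 1 sample. With no fold cutoff, 5 MuvB genes and 11 cyclins, CDKs and inhibitors were called. Of the quiescence genes 1 was called with glmTreat and 3 to 7 without 1 sample. Tob2 lost its call under 11 alternatives and Tob1 under 6, DESeq2 among those for Tob2. In these cases the cause was not tested.

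Same-numbered WT and KO samples showed no shared deviation (correlations 0.038, 0.040 and -0.012), and the main fit did not pair them. Whether same-numbered samples were littermates or were handled together was not stated, and these values cannot settle it. A replicate block gave 3190 calls, 3100 of them shared with the fit without it, 7 members called and an activator minus repressor difference of -0.030. At these depths every member had at least 208 counts per sample. How much of the spread between samples was counting error was not tested for single members.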
